A study of Mus musculus with 2 samples.

Results

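The genes described are 8 regulators of transcription with known roles in the formation and renewal of taste buds, namely *Sox2*, *Pou2f3*, *Prox1*, *Hes6*, *Eya1*, *Insm1*, *Sox9* and *Trp63*. They were taken by name from a table of gene expression in mouse tongue, and 8 of the 18043 rows that carry a gene symbol belong to them. The table compares 1 RNA-sequencing library of the circumvallate papillae (CvP), the taste papillae of the posterior tongue, with 1 library of tongue epithelium without papillae (Epi). Both came from male C57BL/6J mice of 12 to 30 weeks, for which no mutation or treatment is labelled, and each library was made from poly(A) RNA pooled over at least 20 mice. The study states for its CvP tissue used in RT-PCR that it held the epithelium around the taste buds as well. Replicates were absent, so each comparison sets 1 library against the other and no p-value is given. Levels are given as RPKM, reads scaled by the length of the exon model and by the mapped reads of the library, as the authors deposited them. Each CvP/Epi ratio of RPKM has a 95% exact binomial interval from the estimated reads, which covers counting error only. In pooled tissue, more cells of a type and more RNA per cell cannot be told apart.

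Taste buds are clusters of epithelial cells that are replaced throughout life from progenitors in the surrounding basal epithelium. Their mature cells are grouped into glia-like type I cells, type II cells that detect sweet, umami and bitter compounds, and type III cells that detect acids and form synapses. SOX2 and p63, the product of *Trp63*, are known in the progenitor layer, POU2F3 (also called Skn-1a) is required for type II cells, and INSM1 is a zinc finger protein of neuroendocrine differentiation. PROX1 is a homeodomain protein, HES6 a basic helix-loop-helix protein that counteracts HES1, EYA1 a coactivator and phosphatase that works with homeodomain proteins, and SOX9 an HMG-box protein of glands, cartilage and progenitor cells.

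The stretches of 250 bases before the transcription start are shown for the 3 genes whose promoter was found in the RefSeq table used here, to show the letters next to the starts of the regulators themselves. The sequences are from RefSeq on GRCm38.p6 and were placed on NCBI37/mm9, the build of the expression table, by exact match. Capitals mark 6-base matches to ACAAAG, the core letters bound by SOX proteins, or to CACNAG, the N-box bound by HES proteins, on either strand. The sequences run along the gene and the coordinates are those of NCBI37/mm9. That of *Sox2* (chr3:34548667-34548916, plus strand) ends 10 bases from the listed start of the gene, that of *Hes6* (chr1:93309800-93310049, minus strand) ends at it, and that of *Prox1* (chr1:191994707-191994956, minus strand) ends 147 bases from it.
Sox2: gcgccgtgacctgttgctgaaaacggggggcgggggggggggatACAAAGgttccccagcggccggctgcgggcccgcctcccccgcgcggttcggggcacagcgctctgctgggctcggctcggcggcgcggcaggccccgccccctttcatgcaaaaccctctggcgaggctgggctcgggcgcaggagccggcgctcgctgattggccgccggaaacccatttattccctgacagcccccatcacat
Hes6: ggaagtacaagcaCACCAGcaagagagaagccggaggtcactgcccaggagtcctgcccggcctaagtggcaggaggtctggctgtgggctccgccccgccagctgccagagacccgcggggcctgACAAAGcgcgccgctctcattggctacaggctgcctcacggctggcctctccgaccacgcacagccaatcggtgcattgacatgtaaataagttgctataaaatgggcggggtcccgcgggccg
Prox1: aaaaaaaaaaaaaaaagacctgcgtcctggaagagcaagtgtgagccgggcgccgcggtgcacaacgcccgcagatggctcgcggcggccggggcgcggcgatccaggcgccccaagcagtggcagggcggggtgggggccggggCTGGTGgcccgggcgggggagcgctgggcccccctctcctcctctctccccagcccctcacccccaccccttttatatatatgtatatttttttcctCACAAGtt
The *Sox2* window held ACAAAG 206 to 201 bases before the start. The *Hes6* window shown held ACAAAG 124 to 119 bases and the N-box 237 to 232 bases before the start. A window at another RefSeq start of *Hes6*, 816 bases from the listed start, held ACAAAG at 250 to 245 and 236 to 231 bases and no N-box. The *Prox1* window shown held the N-box on both strands and no ACAAAG, while a window at another RefSeq start inside the gene held ACAAAG on the opposite strand. Among all 32851 promoter windows of the same length, 16.5% held ACAAAG and 36.7% held the N-box. ATGCAAAT, the octamer bound by POU2F proteins, stood in none of the windows of these 3 genes and in 1.60% of all windows. Among 13 genes listed here for type II cells with a promoter in the table it stood in any window of 2, *Itpr3* and *Rgs21*. That is a count of genes, which may have several windows, so it cannot be set against the share of windows. These matches are descriptions of letters and not binding sites.

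All 8 regulators had an RPKM of at least 1 in the CvP, and 4 of them, *Sox2*, *Trp63*, *Hes6* and *Pou2f3*, reached 1 in the Epi as well. The RPKM of each was higher in the CvP, and in 7 of the 8 the CvP/Epi ratio was above 3. Among the 12549 rows that reached an RPKM of 1 in either library, 15.9% had a ratio above 3 and 1.96% a ratio below one over 3. The median log2 ratio, with a pseudocount of 0.1 on both values, was 2.74 over the 8 genes and 0.50 over all these rows. As the genes were picked with results of these data known, this is a description of them. A CvP RPKM above 10 together with a ratio above 3 was found in 3 of the 8, *Sox2*, *Hes6* and *Pou2f3*, beside 2.35% of all 18498 rows. The lower limit of the ratio was above 1 in all 8 and above 3 in 7.

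**Figure D1:**
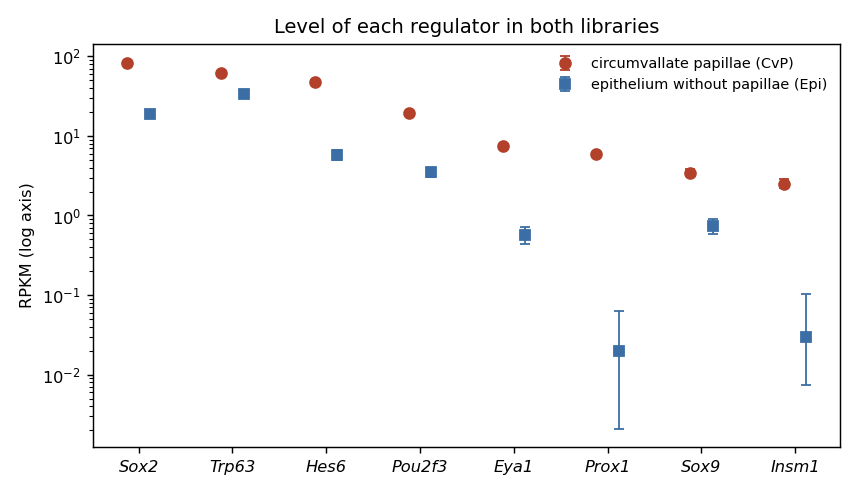
RPKM (log axis) of the 8 regulators in the CvP (circles) and the Epi (squares), 1 library each, ordered by CvP RPKM, with bars for the 95% exact Poisson interval of the estimated reads. The CvP values run from 2.51 to 82.0, a 32.7-fold range, while the Epi values run from 0.02 to 33.6.

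Of the regulators of progenitors and basal cells, *Sox2* (GeneID 20674, chromosome 3, plus strand, 34548927 to 34551382) had the highest CvP level of the 8. Its RPKM was 82.0 (CvP) and 19.1 (Epi), about 5713 and 1310 reads. The ratio was 4.29 (95% interval 4.04 to 4.56), and the Epi level was 23.3% of that in the CvP. In the GENCODE M1 annotation the gene lies within the span of the long non-coding gene *Sox2ot* on the same strand, with which it shares 0 exon bases. *Sox2ot* had RPKM values of 4.17 (CvP) and 0.31 (Epi), a ratio of 13.5, so both transcripts of the locus were higher in the CvP.

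*Trp63* (GeneID 22061, chromosome 16, plus strand, 25683851 to 25892174), which marks and maintains the basal layer of stratified epithelia, had the smallest difference of the 8. Its RPKM was 62.3 (CvP) and 33.6 (Epi). The ratio was 1.85 (1.79 to 1.92), and 31.9% of the rows past the minimum had a higher one. It was the highest of the 8 in the Epi, where *Sox2* came next. Its level rests on a listed length of 13.7 kb, against 5.37 kb for the longest coding transcript in GENCODE M1. Per length of that transcript its CvP level would be 159, above the 81.9 of *Sox2*, so the order of these 2 genes in the CvP turns with the length used. The ratio intervals of 12 genes of the basal epithelium lay above that of *Trp63* in 4 cases, below it in 7 and overlapped it in 1. Of these 12, keratins, integrins and parts of the hemidesmosome, none had a ratio above 3 and 1, *Krt14*, had one below one over 3, with RPKM values of 295 (CvP) and 1140 (Epi). *Krt5*, the partner keratin of *Krt14*, had values of 1506 and 1271, and *Itga6* and *Itgb4*, an integrin pair of the hemidesmosome, had ratios of 2.37 and 2.25.

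*Sox9* (GeneID 20682, chromosome 11, plus strand, 112643524 to 112649071) was low in both libraries. Its RPKM was 3.46 (CvP) and 0.74 (Epi), about 406 and 85 reads, and the ratio was 4.68 (3.71 to 6.01). This interval overlapped those of *Sox2* and *Pou2f3*. SOX9 is also a protein of salivary glands, and the markers of that tissue were mostly on the other side. Of the 8 gland genes past the minimum, 5 had a ratio below one over 3 and 2, *Pigr* and *Aqp5*, had one above 3. Over all rows past the minimum these shares were 1.96% and 15.9%. The summed RPKM of the gland list was 23.9 (CvP) and 439 (Epi). *Pigr*, the receptor that carries immunoglobulins across epithelia, had values of 12.0 and 0.54, and the water channel gene *Aqp5* had 6.09 and 0.69. The part of gland tissue in the *Sox9* value was not tested.

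*Pou2f3* (GeneID 18988, chromosome 9, minus strand, 42932022 to 43013838) had RPKM values of 19.5 (CvP) and 3.49 (Epi), about 1444 and 254 reads. The ratio was 5.59 (4.89 to 6.42). The Epi level was 17.9% of that in the CvP, above the Epi level of most genes listed here for type II cells. POU2F3 is known in keratinocytes of the epidermis as well as in type II cells. Of the 14 genes of this list past the minimum, 11 had a ratio interval that lay wholly above that of *Pou2f3*. The other 3, *Itpr3*, *Scnn1a* and *Plcg2*, had one wholly below. Not all of the list is particular to type II cells. The paper uses KCNQ1, whose gene is among the 11, as a marker of taste bud cells, and *Scnn1a* encodes a subunit of the epithelial sodium channel. *Gnat3*, the gene of the taste G protein gustducin, had RPKM values of 127 (CvP) and 0.03 (Epi). *Trpm5*, the cation channel of the type II cascade, had 37.8 and 0.01, and *Plcb2*, its phospholipase, had 70.0 and 0.12. *Gng13*, a G protein subunit, was at 77.4 in the CvP and was listed at 0 in the Epi. The 10 genes of the list with a CvP level above that of *Pou2f3* included *Itpr3* and *Scnn1a*, which were at 21.9 and 54.8 in the Epi.

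*Prox1* (GeneID 19130, chromosome 1, minus strand, 191945658 to 191994559) had the highest ratio of the 8. Its RPKM was 5.91 in the CvP, about 693 reads, and 0.02 in the Epi, about 2 reads. The ratio of 296 had an interval from 94.0 to 2820, and the rounding of the Epi value to 2 decimals alone allows ratios from 236 to 394. By the listed length the reads would be about 1301 (CvP) and 4 (Epi), and the interval 125 to 1176. A higher ratio was found in 2.02% of the rows past the minimum. Exons of *Prox1* share 133 bases with *Gm17566*, a long non-coding gene on the opposite strand that was not analysed here. PROX1 is known for lymphatic endothelium, and several markers of endothelium were close to 0 in both libraries. *Flt4*, the receptor of lymphatic growth factors, had RPKM values of 0.01 (CvP) and 0.03 (Epi), *Cdh5*, the cadherin of endothelium, had 0.02 and 0.06, and *Kdr* had 0.04 and 0.02. Of the 8 endothelial genes with a row, 2 passed the minimum, *Pdpn* (29.1 and 2.09), which epithelial cells also make, and *Tek* (2.49 and 0.07), both with a ratio above 3. The summed RPKM of this list was 32.2 (CvP) and 2.67 (Epi), most of it from *Pdpn*, and the part of endothelium in the *Prox1* value was not tested. The 4 keratins of taste bud cells, *Krt8*, *Krt18*, *Krt19* and *Krt7*, had CvP levels from 113 to 198, and the ratios of 3 of them had intervals that overlapped that of *Prox1*.

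*Hes6* (GeneID 55927, chromosome 1, minus strand, 93308060 to 93309799) had RPKM values of 48.0 (CvP) and 5.80 (Epi), about 1818 and 216 reads. The ratio was 8.28 (7.19 to 9.58). Its level was the third of the 8 in both libraries. *Hes1*, the repressor that HES6 counteracts, differed less, with values of 39.9 and 25.3 and a ratio of 1.58 (1.46 to 1.71). Per listed length, the RPKM of *Hes6* stood above that of *Hes1* in the CvP and below it in the Epi. The listed length of *Hes1* is 3.19 kb against 1.47 kb for its longest coding transcript, and per length of the transcript *Hes1* would be the higher in both libraries.

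*Eya1* (GeneID 14048, chromosome 1, minus strand, 14159039 to 14300280) had RPKM values of 7.42 (CvP) and 0.57 (Epi), about 915 and 69 reads. The ratio was 13.0 (10.2 to 16.9), behind those of *Prox1* and *Insm1*. In the CvP its level was 1.26 times that of *Prox1*, with intervals that did not overlap. Per length of the longest coding transcript *Prox1* would be the higher, at 11.1 against 8.49.

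*Insm1* (GeneID 53626, chromosome 2, plus strand, 146047733 to 146050754) had the lowest CvP level, an RPKM of 2.51 or about 215 reads, and 0.03 in the Epi, about 3 reads. The ratio was 83.7, with an interval from 23.8 to 345. Rounding of the Epi value alone allows 71.7 to 100.4. Its interval overlapped those of 9 of the 13 type III genes past the minimum and lay below those of 2, *Pkd2l1* and *Otop1*, and above those of 2, *Chga* and *Gng4*. Of those 13 genes, 12 had a ratio above 3, beside 15.9% of all rows past the minimum. Each of the 12 was below an RPKM of 1 in the Epi and so passed the minimum through the CvP alone. *Otop1*, the proton channel of sour taste, and *Snap25*, a protein of synaptic vesicle fusion, had CvP levels of 20.1 and 11.1 and were listed at 0 in the Epi. INSM1 and SOX2 are also proteins of Merkel cells of the skin. The 3 other genes of the Merkel cell list past the minimum, *Krt8*, *Krt18* and *Krt20*, had ratios above 3 and are also keratins of taste buds or simple epithelia. *Krt20* had a CvP RPKM of 26.8 and was listed at 0 in the Epi, while *Isl1* was at 0.03 and 0.05, and *Piezo2*, the touch channel gene, at 0.31 and 0.74. The part of such cells in the *Insm1* value was not tested.

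**Figure D2:**
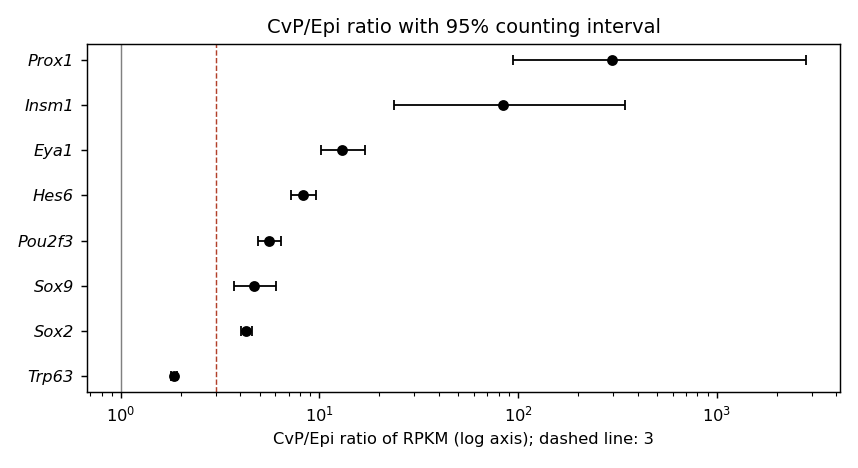
CvP/Epi ratio of RPKM (log axis) for the 8 regulators, 1 library per tissue, with bars for the 95% exact binomial interval, a solid line at 1 and a dashed line at 3. *Trp63* alone lies left of the dashed line, at 1.85. The bars of *Prox1* and *Insm1* are wide because they were computed from about 2 and 3 estimated Epi reads.

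By ratio the order was *Prox1*, *Insm1*, *Eya1*, *Hes6*, *Pou2f3*, *Sox9*, *Sox2* and *Trp63*. Among neighbours in this order, the intervals of *Prox1* and *Insm1*, of *Pou2f3* and *Sox9* and of *Sox9* and *Sox2* overlapped, and the other neighbours were apart by more than counting error. By CvP RPKM the order was *Sox2*, *Trp63*, *Hes6*, *Pou2f3*, *Eya1*, *Prox1*, *Sox9* and *Insm1*, and all neighbours were apart in their Poisson intervals. In the Epi, *Sox9* and *Eya1* had overlapping intervals, as did *Insm1* and *Prox1*.

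The EYA-SIX-DACH families form a network of cofactors and homeodomain proteins. Beside *Eya1*, 6 of their genes passed the minimum, and 5 of these had a ratio above 3 while none had one below one over 3. Over all rows past the minimum these shares were 15.9% and 1.96%. *Six4* had RPKM values of 4.08 (CvP) and 0.03 (Epi), and *Eya2* had 31.0 and 1.5, a ratio of 20.7 (16.9 to 25.4). *Dach1*, a corepressor of the network, had 2.14 and 0.13, and *Six5* had 1.48 and 0.47. *Eya3* was the exception, with 13.3 and 9.55 and a ratio of 1.39. The CvP level of *Eya2* was above that of *Eya1*, and *Eya4* was at 0.03 and 0.06.

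In the SOX family, 9 genes other than *Sox2* and *Sox9* passed the minimum. Of these, 4 had a ratio above 3, beside 15.9% of all rows past the minimum. *Sox4* had RPKM values of 24.4 and 4.84, a ratio of 5.04 (4.63 to 5.49), and *Sox13* had 22.3 and 3.40, a ratio of 6.56 (5.87 to 7.37). *Sox1*, which belongs to the same subgroup as *Sox2*, had 3.28 (CvP) and 0.01 (Epi), about 376 reads and 1 read, and *Sox5* had 1.00 in the CvP and was listed at 0 in the Epi. *Sox21* (15.7 and 7.08), *Sox15* (26.0 and 15.5), *Sox7* (13.5 and 10.5), *Sox12* (1.30 and 1.02) and *Sox6* (2.84 and 3.64) were within 3-fold. *Sox3*, the other relative of *Sox2*, was listed at 0 in both libraries. *Sox10*, a gene of glia and Schwann cells, was at 0.18 and 0.08.

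In the HES and HEY family, 3 genes other than *Hes6* passed the minimum. *Hey1* had RPKM values of 10.8 (CvP) and 0.23 (Epi), a ratio of 46.9 (28.0 to 87.1), and *Heyl* had 2.36 and 0.02, while *Hes1* is described above. *Hes5* was at 0.06 in the CvP and was listed at 0 in the Epi. In the POU family *Pou6f1* had 2.70 and 0.29, a ratio of 9.31 (6.72 to 13.3). *Pou2f1*, the widely expressed relative of *Pou2f3*, had 1.86 and 1.28, and *Pou3f1* had 1.44 and 1.21. *Pou2f2*, known from lymphocytes, stayed below an RPKM of 1 in both, at 0.59 and 0.08. In the p53 family *Trp53* had 24.5 and 16.7, a ratio of 1.47 (1.35 to 1.60), and *Trp73* had 2.53 and 1.88, so that all 3 members were within 3-fold. *Prox2* was at 0.48 and 0.21, and *Insm2* was looked up but matched to no row.

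Of 22 other regulators of taste or tongue epithelium, 20 passed the minimum. Of these 20, 7 had a ratio above 3 and none had one below one over 3, beside 15.9% and 1.96% of all rows past the minimum. The RPKM was higher in the CvP in 14 of the 20. The median log2 ratio of the 20 was 0.63, beside the 0.50 of all rows. *Nkx2-2*, *Etv1*, *Foxa2*, *Spib* and *Six4* were among the 7. *Nkx2-2*, known in type III cells, had a CvP RPKM of 3.30 and was listed at 0 in the Epi. *Foxa2*, a forkhead gene, had 18.8 and 0.06, a ratio of 314 (109 to 1029). *Spib*, an ETS gene, had 7.76 and 0.04, and *Etv1*, another, had 9.63 and 0.15. Others on the list were lower in the CvP, within 3-fold. *Pitx1* was at 73.2 and 129, *Pax9* at 49.7 and 87.1, *Klf4* at 164 and 256, *Sim2* at 25.8 and 42.6, *Lef1* at 3.19 and 4.89, and *Barx2* at 30.7 and 71.0, a ratio of 0.432 (0.408 to 0.458). *Klf5* was at 136 and 93.8.

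**Figure D3:**
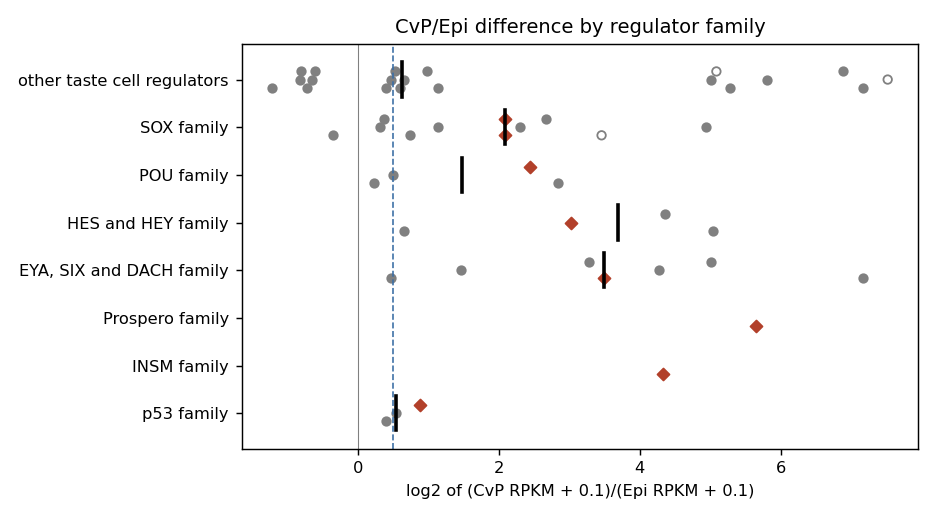
log2 of the CvP/Epi ratio, with 0.1 added to both RPKM values, of each gene that reached an RPKM of 1 in either library, by family. Diamonds are the 8 regulators, circles other genes (open where the Epi value is listed at 0), short vertical lines the medians of groups of 3 or more, and the dashed line the median of all rows, 0.50. The EYA-SIX-DACH genes centre on 3.49 and the p53 family on 0.55.

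The table marks 555 rows as transcription factors through a gene ontology term for DNA-binding transcription factor activity, among them *Sox2*, *Pou2f3*, *Prox1*, *Hes6*, *Sox9* and *Trp63*. By CvP RPKM, *Sox2* was number 12 of these rows, *Trp63* number 15, *Hes6* number 22, *Pou2f3* number 80, *Prox1* number 240 and *Sox9* number 293. In the Epi their places were 60, 32, 184, 231, 458 and 352 in the same order. Of the 387 such rows past the minimum, 63 or 16.3% had a ratio above 3, close to the 15.9% of all rows, and 2.58% had one below one over 3. A CvP RPKM above 10 together with a ratio above 3 was found in 3.24% of the 555, with *Sox2*, *Hes6* and *Pou2f3* among them. By ratio, *Prox1* was number 7 of the 387, *Hes6* number 26, *Pou2f3* number 35, *Sox9* number 44, *Sox2* number 47 and *Trp63* number 131. Among the 63, the rows with a CvP RPKM above that of *Sox2* were *Elf3*, an ETS gene of epithelia (90.5 and 8.32), and *Pax1* (85.0 and 1.47), both named after their values were seen.

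**Figure D4:**
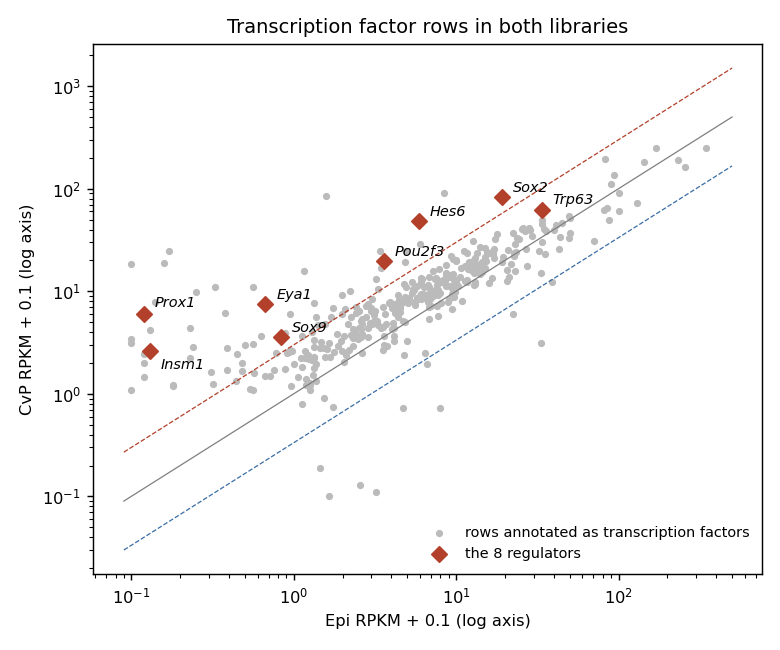
CvP against Epi RPKM, both with 0.1 added and on log axes, of the 387 transcription factor rows that reached an RPKM of 1 in either library (grey) and the 8 regulators (diamonds). The solid line marks equal values and the dashed lines 3-fold differences. *Trp63* lies between the dashed lines, the other 7 lie above the upper one, and *Prox1* and *Insm1* stand at the left edge with Epi values of 0.02 and 0.03.

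Over the 2 libraries, each regulator was compared with 212 other listed genes by the distance between their log2 levels, with 0.1 added to each RPKM. The nearest gene to *Prox1* was *Car4*, a marker of type III cells, at 6.24 and 0.03 (distance 0.14). *Insm1* was nearest to *Heyl* (0.14), *Hes6* to *Entpd2*, a marker of type I cells (0.40), *Pou2f3* to *Sox13* (0.20) and *Trp63* to *Itgb4* (0.38). *Sox2*, *Eya1* and *Sox9* were nearest to the immune genes *Cd74* (0.44), *C1qb* (0.28) and *Itgam* (0.11). With 2 libraries such nearness means only that both levels were similar.

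Marker lists of other cells give the setting of these values. Of the genes past the minimum, 4 of 7 for type I cells, 11 of 14 for type II cells, 12 of 13 for type III cells and all 4 taste bud keratins had a ratio above 3. Over all rows past the minimum, 15.9% had a ratio above 3 and 1.96% one below one over 3. All 12 type III genes above 3, and most of the 11 type II ones, were below an RPKM of 1 in the Epi. They passed the minimum through the CvP alone. *Entpd2* had RPKM values of 54.8 and 4.53, whereas *Slc1a3*, a glutamate transporter gene of type I cells, was the other way, at 1.04 and 3.82, a ratio of 0.272. Of the 11 genes on the list of taste stem and progenitor cells other than *Sox2*, 5 were above 3, namely *Lgr5*, *Lgr6*, *Shh*, *Ptch1* and *Gli1*, and 1, *Krt14*, was below one over 3. The summed RPKM of that list, *Sox2* included, was 1998 (CvP) and 2448 (Epi). Most of both sums came from *Krt5* (1506 and 1271) and *Krt14* (295 and 1140), so they say little about the other genes. The receptor gene *Lgr5* was at 31.3 and 0.01, and the ligand gene *Shh* at 3.61 and 0.01. Of 12 genes of keratinized epithelium, 6 had a ratio below one over 3 and none had one above 3. All 9 muscle genes were below one over 3, with summed levels of 7.97 and 70.3, while 7 of 9 immune genes were above 3, with 223 and 28.8. *Ptprc*, which marks all leukocytes, was at 1.18 and 0.23, and *Lyz2* made up 132 of the immune sum in the CvP. Of 4 nerve genes past the minimum, 2 were above 3, *Uchl1* at 15.0 and *Nefl* at 2.32 in the CvP, both listed at 0 in the Epi. The summed levels of the nerve list were 34.5 and 11.3. *Prph*, a gene of peripheral neurons, was at 0.02 in the CvP and listed at 0 in the Epi. Of 2 fibroblast genes past the minimum, 1, *Pdgfra*, was above 3 and 1, *Dcn*, below one over 3. The collagen genes *Col1a1* and *Col3a1* were at 0.25 or less in both. Of 12 housekeeping genes 1, *B2m*, was above 3. The part of these other cells in the values of the 8 regulators was not tested.

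**Figure D5:**
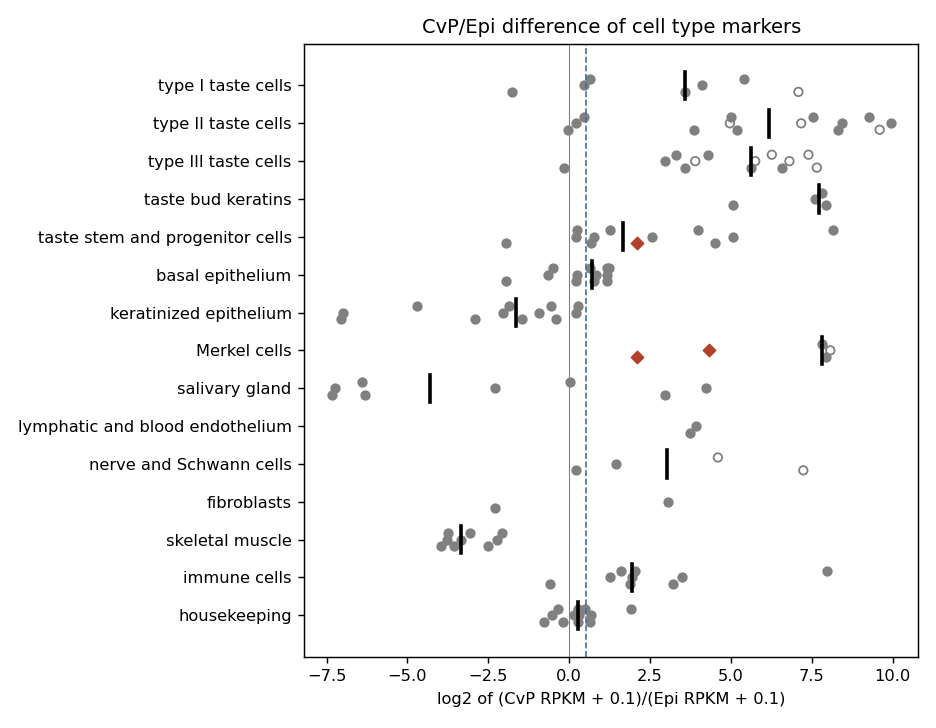
log2 of the CvP/Epi ratio, with 0.1 added to both RPKM values, of marker genes that reached an RPKM of 1 in either library, by list. Symbols and lines are circles for genes (open where the Epi value is listed at 0), diamonds for *Sox2* and *Insm1*, short vertical lines for medians of 3 or more genes, and a dashed line for the median of all rows. Taste bud keratins centre on 7.71, basal epithelium on 0.70 and keratinized epithelium on -1.65.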

How the data were processed

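Poly(A) RNA of the CvP and of the Epi, pooled per tissue, was sequenced by the authors as single-end reads. Per the labels, reads were mapped with Bowtie 0.12.7 to mm9, and the paper's methods name ERANGE for the RPKM values. The deposited table holds RPKM rounded to 2 decimals, a gene length in kb and the authors' ratio of both tissues, which was not used. Which options ERANGE was run with, and how it treated reads matching several places, are not given in the sources used here. The counting was not stated to use strand.

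Depth was read from the step between RPKM values in 163 rows of 0.1 kb, and came to 28373653 (CvP) and 27914131 (Epi) mapped reads. In rows of up to 0.5 kb with under 20 reads, 98.2% and 98.4% of the values were whole numbers of reads within 0.15. The length used was checked in rows whose listed length exceeds the longest coding transcript of GENCODE M1 by over 1.2 times. Only rows above 0.5 and up to 1.2 kb with under 10 reads were checked, and the listed lengths of all 8 regulators are longer. There 21 of 24 CvP and 10 of 13 Epi values were whole with the listed length, against 8 of 27 and 6 of 14 with the transcript's. RPKM was therefore taken to rest on the listed length, with less evidence for the Epi. Reads were estimated from the shorter of both, which widens the intervals. Those of ratios are Clopper-Pearson intervals.

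The 8 genes, the 23 gene lists and the rule for genes named were chosen with earlier results of these data known. The rule names the 8 genes, the highest and the more than 3-fold different genes of each family, leading and defining markers of each list, the nearest listed gene and overlapping rows. Some marker genes outside this rule are named as well. Listed genes were matched by symbol or gene ID, and some of them are counted but not reported by name here. Statistics were tested on simulated data. Python 3.11.15, numpy 2.4.6, pandas 2.3.3, scipy 1.17.1 and matplotlib 3.10.9 were used. Pseudocounts, scalings, minimums and lengths were varied.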

Additional observations from a re-analysis of the deposited data

How the results depend on the processing

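No paired analysis was possible because there is a single pool per tissue, so that leaving out a library gives no value either. The Epi reads of *Prox1* and *Insm1* were estimated at about 2 and 3, and those of *Prox1* would be about 4 by the listed length. Their ratios therefore have wide intervals, and all intervals cover counting error only.

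The number of regulators with a ratio above the fold was 7, and it was 5 with a fold of 5. With a minimum RPKM of 5 it was also 5, because *Insm1* and *Sox9*, at 2.51 and 3.46 in the CvP, were left out by that minimum. It was 6 with a pseudocount of 1, and 7 under the other alternatives run, while the number below the inverse of the fold stayed at 0. The number that also had a CvP RPKM above 10 was 3, and 6 with RPKM rescaled to a common sum, which multiplies all CvP values alike, so that the limit of 10 no longer stands for the same RPKM. The ratio stayed above 1 for each regulator. Across rows at an RPKM of 1 or more in both libraries the median ratio was 1.31 (log2 0.39). Divided by it, the ratios were 3.27 for *Sox2*, 4.26 for *Pou2f3*, 6.30 for *Hes6*, 9.92 for *Eya1*, 3.56 for *Sox9* and 1.41 for *Trp63*. After division by the trimmed mean ratio they were 3.26, 4.24, 6.28, 9.88, 3.55 and 1.41. Rescaled to the common sum they were 5.17 for *Sox2*, 6.74 for *Pou2f3*, 9.98 for *Hes6* and 2.23 for *Trp63*. With a pseudocount of 0.1 *Prox1* was at 50.1 and *Insm1* at 20.1. With a pseudocount of 1 *Prox1* was at 6.77, *Insm1* at 3.41, *Eya1* at 5.36, *Pou2f3* at 4.57 and *Sox9* at 2.56, below 3.

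Counts of listed genes above 3-fold moved by over 1.5 times in these cases. With no minimum they were 4 in place of 2 for the POU family, 7 in place of 3 for the HES and HEY family, 7 in place of 2 for nerve and 3 in place of 1 for fibroblasts. With a pseudocount of 1 they were 1 for the POU family, 0 for fibroblasts and 3 in place of 7 for immune genes. Divided by the median ratio the count of housekeeping genes was 0 in place of 1. Per length of the longest coding transcript, an alternative added after the data were seen, 2 pairs of the 8 regulators changed their order in the CvP and 1 pair, *Insm1* and *Prox1*, in the Epi.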

Other observations

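None of the 8 regulators was lower in the CvP, so the transcription factors of the opposite direction are given here, named after their values were seen. Of the 387 transcription factor rows past the minimum, 10 or 2.58% had a CvP/Epi ratio below one over 3. *Dlx3*, a gene of differentiating keratinocytes and hair, had RPKM values of 12.2 (CvP) and 38.8 (Epi), a ratio of 0.315 (95% interval 0.292 to 0.340). *Maf* had 3.03 and 33.4, and *Rora*, a nuclear receptor gene, had 5.85 and 22.2. *Msx2* had 0.63 and 7.87. *Hoxc13*, known for the control of hair keratin genes, was at 1.54 in the Epi, about 105 reads, and was listed at 0 in the CvP. *Lhx6* had 3.11 in the Epi, about 302 reads, and 0.01 in the CvP, about 1 read. *Tbx1*, *Irx4* and *Isl2* had Epi levels from 1.35 to 6.50.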
